A study of Homo sapiens with 12 samples.

Results

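Collagens, laminins and the glycoproteins assembled with them were followed as a group of 65 genes among the 18417 genes measured on the arrays. The group holds every gene with a symbol of the form COL, digits, A, digits (43 collagens), every LAMA, LAMB or LAMC gene (10 laminin chains) and 12 listed genes (FN1, POSTN, HAPLN1, NID1, NID2, HSPG2, SPARC, TNC, VCAN, FBN1, FBN2 and P3H2). The collagens and laminins entered by symbol and the 12 others by a hand-made list. That list was drawn up with earlier results of these arrays known, and 3 further genes of the rule are not analysed here. NCCIT, a human embryonal carcinoma line that resembles pluripotent stem cells, was transfected with siRNA, and 250 ng of RNA per sample went onto an Affymetrix Human Gene ST array. There were 2 arrays each for siWDR5 (WDR5, a core subunit of the MLL/COMPASS H3K4 methyltransferases), siEED (EED, a core subunit of PRC2, which writes H3K27me3), siRNF2 (RNF2, the PRC1 ligase that writes H2AK119ub), siEED+RNF2 (both siRNAs together), siSETD2 (SETD2, the methyltransferase that writes H3K36me3) and the non-targeting control siNTC. All 12 arrays come from the same line, the labels add the word re-analysis to siNTC, and nothing in them tells whether replicates were grown apart. The p-values therefore cover only the spread between these arrays, which may be technical.

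The extracellular matrix consists of fibrils, networks and glycoproteins secreted by cells. Basement membranes are sheets in which a laminin network and a type IV collagen network are linked by nidogens and perlecan, whereas fibrillar collagens and fibronectin build the interstitial matrix. Early embryonic and embryonal carcinoma cells make laminins and type IV collagen, and integrins, syndecans and CD44 are among the receptors through which cells hold on to matrix.

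Expression values lay between 3.18 and 15 on the log2 scale, and the median of an array between 6.29 and 6.36. The correlation of replicates over the transcript clusters was 0.9960 to 0.9970, while the closest array of another condition reached 0.9934 to 0.9952 for the siWDR5, siEED, siRNF2 and siEED+RNF2 arrays. The siSETD2 arrays (0.9905) and the siNTC arrays (0.9898 and 0.9905) stood further from the rest, and siNTC is the control of all 5 knockdowns. Each measured siRNA target was lower where it was targeted. WDR5 was at 8.39 and 8.24 in siWDR5 against 9.48 and 9.58 in siNTC, EED at 8.25 and 8.14 in siEED and, in the dual knockdown, 7.93 and 7.82, with 9.55 and 9.43 in siNTC, and SETD2 at 9.01 and 9.08 in siSETD2 against 10.78 and 10.81 in siNTC. The RNF2 transcript was not analysed here. Markers of pluripotent cells (7 of 10 measured, without POU5F1, NANOG and TDGF1) had a summed linear signal of 28404 to 28576 in siSETD2. The sum was 22100 to 24263 in the other knockdowns, against 28306 to 28553 in siNTC. Among these markers PODXL was lower in siWDR5, siRNF2 and siSETD2 (log2 fold changes of -0.70, -0.61 and -0.79). LIN28A was lower in siWDR5 (-0.68), LIN28B in siEED+RNF2 (-0.90) and DNMT3B in siRNF2 (-0.71) and siEED+RNF2 (-0.62). DPPA4 was higher in siSETD2 (0.59), so the siSETD2 sum holds changes in both directions.

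A gene was called when the limma fit over all genes gave an adjusted p (Benjamini-Hochberg) under 0.05 together with a change of 1.5-fold or more. By this rule 17 of the 65 matrix genes (26.2%) changed in at least 1 knockdown, beside 19.6% of all genes, and 48 in none. Of the 17, 10 are from the list made with results known, so the 26.2% is not read as a result about matrix genes. In siSETD2 8 matrix genes were called, which is 12.3% of the members beside 5.82% of all genes tested, with 2 higher (2.64% of all genes) and 6 lower (3.18% of all genes). The siSETD2 genes were FN1, SPARC, TNC, POSTN, LAMA2 and COL18A1, all lower, and P3H2 and LAMA1, both higher. Of these, FN1, SPARC, TNC, POSTN and P3H2 are from the list made with results known, so nothing is read from the 12.3%. Among genes entered by symbol, 1 of 43 collagens was lower, and of 10 laminins 1 was higher and 1 lower. In siEED+RNF2 7 were called beside 11.5% of all genes, with 3 higher (5.49%) and 4 lower (6.02%). In siRNF2 6 were called beside 10.2% of all genes, with 4 higher (6.37%) and 2 lower (3.81%). In these 2 knockdowns the members' shares, 10.8% and 9.23%, lay near those of all genes. In siWDR5 5 were called beside 6.02% of all genes, with 3 higher (2.8%) and 2 lower (3.22%). In siEED 3 were called beside 6.37% of all genes, with 1 higher (3.74%) and 2 lower (2.63%). All 5 comparisons use the same 2 siNTC arrays, and 13 of the 17 genes were called in a single knockdown.

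**Figure D1:**
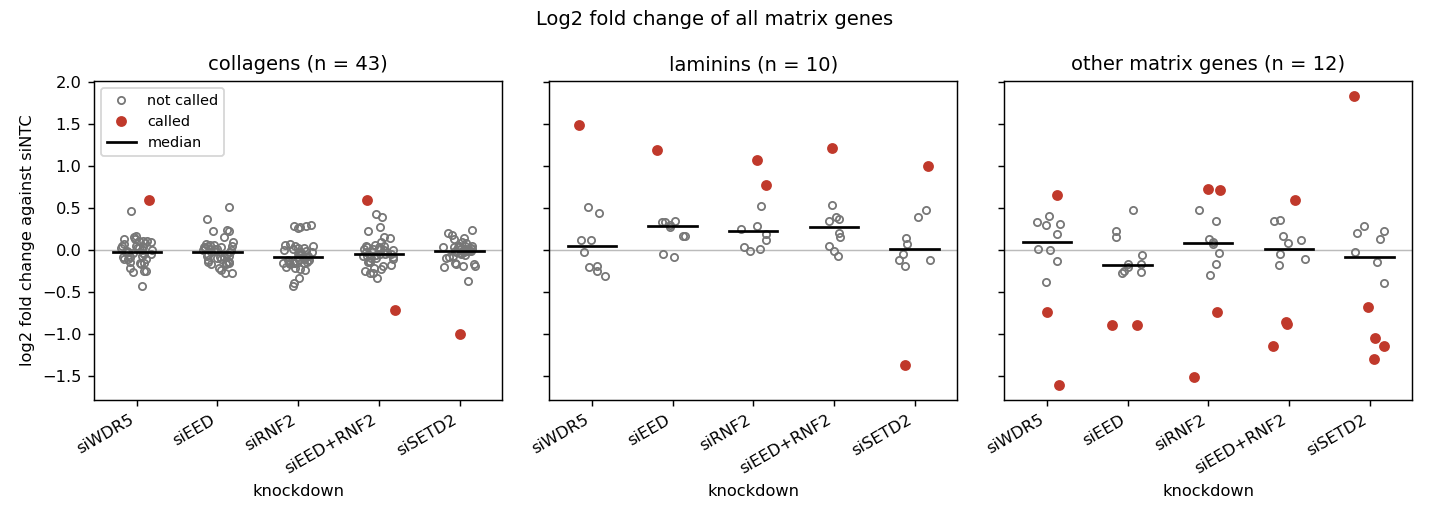
The vertical axis gives each matrix gene's log2 fold change against siNTC and the horizontal axis the knockdown, in panels for 43 collagens, 10 laminins and 12 other matrix genes. Filled points are called genes, open points are not called and bars are medians; collagens cluster around 0, and the widest changes, -1.61 for HAPLN1 and 1.84 for P3H2, are among the other matrix genes.

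Of 43 collagens 4 (9.3%) changed in at least 1 knockdown, beside the same 19.6% of all genes. They were COL4A1, COL4A2, COL4A5 and COL18A1. Of 10 laminins 3 changed, and of the 12 other members 10, a count from which nothing is read since that list was made with results known. The 48 uncalled genes, 39 of them collagens, had log2 fold changes between -0.43 and 0.53. Of the members, 26 (40%) were among the dimmest 30% of genes, below a mean log2 value of 5.27, and 22 of those were collagens. Of the 17 called genes 1, POSTN, was among these dim genes.

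**Figure D2:**
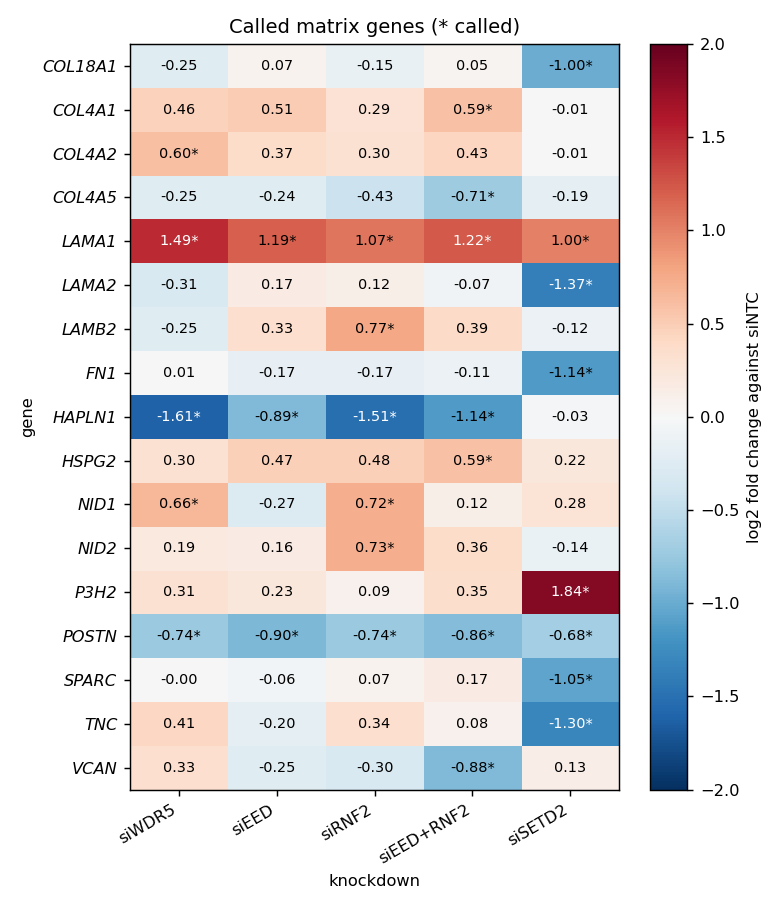
Log2 fold change against siNTC of the 17 called matrix genes (rows) in the 5 knockdowns (columns), with called values starred. LAMA1 is called higher and POSTN called lower in every column, while the called lower values of FN1, SPARC, TNC, LAMA2 and COL18A1 stand in the siSETD2 column.

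FN1, SPARC and TNC were lower in siSETD2 by 2.07-fold to 2.46-fold and were called in no other knockdown. Fibronectin (FN1) is the adhesive glycoprotein bound by integrins, SPARC is a collagen-binding matricellular protein, and tenascin C (TNC) is a glycoprotein of embryonic and remodelling matrix. FN1 was at 9.49 and 9.50 in siSETD2 against 10.67 and 10.61 in siNTC, and the 8 arrays of the other knockdowns lay at 10.45 to 10.69. SPARC was at 9.59 and 9.62 in siSETD2 against 10.61 and 10.72 in siNTC, with the other knockdowns at 10.58 to 10.84. TNC was at 7.36 and 7.2 in siSETD2 against 8.54 and 8.62 in siNTC, with the other knockdowns at 8.33 to 9.04. For each of these 3 genes both siSETD2 arrays lay below all 10 other arrays. In limma the log2 fold changes were -1.14 ± 0.06 for FN1 (SE, adjusted p = 1.5e-07), -1.05 ± 0.06 for SPARC (adjusted p = 4e-07) and -1.30 ± 0.08 for TNC (adjusted p = 3.6e-07). In bulk RNA, fewer cells of a type and less RNA per cell cannot be told apart.

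These genes were also lower when the siNTC arrays took no part. In siSETD2 against siWDR5, 8 matrix genes were called, beside 5.84% of all genes, and FN1 (-1.16 ± 0.06, adjusted p = 1.6e-07 in limma), SPARC (-1.05 ± 0.06, adjusted p = 4.4e-07) and TNC (-1.71 ± 0.08, adjusted p = 6.1e-08) were among them. FN1, SPARC and TNC are from the list made with results known, so nothing is read from that count. The larger value for TNC goes with its level in siWDR5, 9.04 and 8.95, above the 8.54 and 8.62 of siNTC by 0.41 on the log2 scale, a difference under the fold threshold. In siWDR5 against siEED, 3 matrix genes were called beside 3.33% of all genes, and TNC was one of them at 0.62 ± 0.08 (adjusted p = 0.00017 in limma). That call was lost at 0.57 without siEED replicate 1 and without siWDR5 replicate 1.

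The stretches before the starts of these 3 genes are shown because the genes moved together in siSETD2. They are the 250 bases before the RefSeq start on GRCh38.p14, read 5′ to 3′ on the gene's strand, for FN1 (chr2:215436069-215436318, minus strand), SPARC (chr5:151686916-151687165, minus strand) and TNC (chr9:115118158-115118407, minus strand). Capitals mark matches on either strand to the letters TATAA of a TATA box, to the CCAAT box, to the letters GGGCGG of a GC box and to TGACGTCA, a cyclic AMP response element.
FN1: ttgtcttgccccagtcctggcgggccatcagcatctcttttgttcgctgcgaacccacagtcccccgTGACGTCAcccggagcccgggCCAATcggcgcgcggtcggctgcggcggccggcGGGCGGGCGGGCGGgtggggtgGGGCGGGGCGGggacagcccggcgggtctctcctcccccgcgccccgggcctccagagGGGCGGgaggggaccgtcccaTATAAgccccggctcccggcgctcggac
SPARC: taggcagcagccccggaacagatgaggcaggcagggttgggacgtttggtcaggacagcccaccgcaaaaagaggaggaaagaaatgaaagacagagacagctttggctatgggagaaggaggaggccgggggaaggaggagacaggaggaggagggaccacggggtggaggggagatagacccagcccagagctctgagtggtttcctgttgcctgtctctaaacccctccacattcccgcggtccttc
TNC: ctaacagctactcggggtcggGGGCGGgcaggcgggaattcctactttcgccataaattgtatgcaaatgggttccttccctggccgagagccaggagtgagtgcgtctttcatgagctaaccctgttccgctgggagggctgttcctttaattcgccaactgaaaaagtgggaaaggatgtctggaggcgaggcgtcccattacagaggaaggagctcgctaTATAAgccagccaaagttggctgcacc
The FN1 stretch held 6 matches to GGGCGG, some overlapping one another, with TGACGTCA from 183 to 176 bases before the start, CCAAT from 162 to 158 and TATAA from 28 to 24. TNC had TATAA from 27 to 23 bases before its start and GGGCGG from 229 to 224, and SPARC had no match to these letters. Over the same window of 27305 promoters, 19.6% held TATAA, 33% CCAAT, 42.3% GGGCGG and 1.77% TGACGTCA. The stretches also differed in CpG dinucleotides, with 32 in FN1, 7 in SPARC and 12 in TNC, beside a median of 11 over all promoters.

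POSTN, encoding periostin, a matricellular protein of collagen-rich tissue, was the matrix gene called lower in all 5 knockdowns. It was at 4.33 and 4.48 in siWDR5, 4.24 and 4.25 in siEED, 4.48 and 4.34 in siRNF2, 4.24 and 4.33 in siEED+RNF2 and 4.55 and 4.38 in siSETD2, against 5.23 and 5.06 in siNTC. All 10 knockdown arrays lay below both siNTC arrays. In limma the log2 fold changes ran from -0.90 ± 0.09 in siEED (adjusted p = 1.5e-05) to -0.68 ± 0.09 in siSETD2 (adjusted p = 0.00012). No direct comparison between knockdowns called POSTN. When siNTC was replaced by the mean of knockdowns with another siRNA target, the difference was -0.18 in siEED and 0.06 in siWDR5 and was called in none.

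The 250 bases before the POSTN start (chr13:37598769-37599018, minus strand, marked as above) are printed as a contrast in base composition to FN1.
POSTN: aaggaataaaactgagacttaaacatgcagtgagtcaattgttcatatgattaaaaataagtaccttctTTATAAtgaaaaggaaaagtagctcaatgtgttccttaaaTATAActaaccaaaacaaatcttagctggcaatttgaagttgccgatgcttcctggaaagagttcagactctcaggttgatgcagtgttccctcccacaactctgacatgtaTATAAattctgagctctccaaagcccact
The POSTN stretch held 1 CpG and 36.4% G and C, beside 76.4% in FN1 and a median of 58% over all promoters. It had TATAA at 4 places, the nearest from 29 to 25 bases before the start. A pair of these matches, on opposite strands, overlapped.

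P3H2, a prolyl 3-hydroxylase that modifies collagen chains and is best known for acting on type IV collagen, had the largest change of any matrix gene. It was at 8.61 and 8.85 in siSETD2 against 6.80 and 6.97 in siNTC, and the other 8 knockdown arrays lay at 6.94 to 7.23. Both siSETD2 arrays stood above all 10 others. The log2 fold change was 1.84 ± 0.10, a 3.59-fold difference (limma, adjusted p = 1.5e-07), and 1.54 ± 0.10 against siWDR5 (adjusted p = 6.9e-07).

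**Figure D3:**
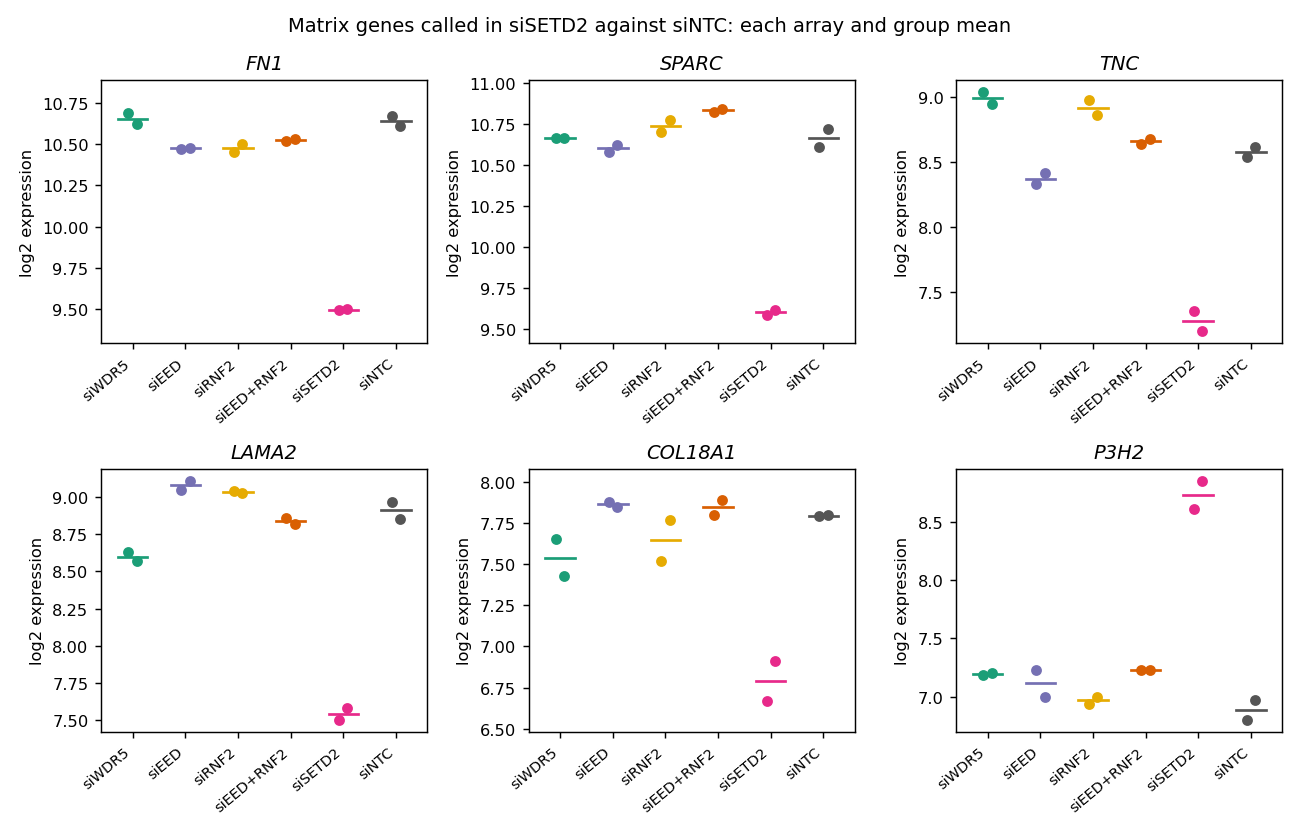
Log2 expression (vertical axis) on each array (points) with the mean of 2 arrays (bars) for 6 genes called in siSETD2, with conditions on the horizontal axis. FN1 (9.49 and 9.50), SPARC, TNC, LAMA2 and COL18A1 are lowest and P3H2 (8.61 and 8.85) highest in siSETD2.

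HAPLN1, the link protein that locks proteoglycans onto hyaluronan, fell in every knockdown but siSETD2. It was at 4.87 and 5.01 in siWDR5, 5.64 and 5.68 in siEED, 5.07 and 5.01 in siRNF2, 5.38 and 5.44 in siEED+RNF2 and 6.58 and 6.46 in siSETD2, against 6.77 and 6.33 in siNTC. The siSETD2 arrays lay between the siNTC arrays, and the other 8 arrays lay below both. In limma the log2 fold changes were -1.61 ± 0.11 in siWDR5 (adjusted p = 2e-06), -1.51 in siRNF2 (adjusted p = 1.3e-06), -1.14 in siEED+RNF2 (adjusted p = 8e-06), -0.89 in siEED (adjusted p = 0.00011) and -0.03 in siSETD2 (adjusted p = 0.86).

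Direct comparisons separated the conditions for HAPLN1. It was lower in siWDR5 than in siEED by a log2 value of -0.72 ± 0.11 (limma, adjusted p = 0.00098) and higher in siSETD2 than in siWDR5 by 1.58 ± 0.11 (adjusted p = 2.2e-06). In siRNF2 against siEED, 2 matrix genes were called beside 1.26% of all genes, HAPLN1 at -0.62 ± 0.11 (adjusted p = 0.0056) and NID1. The HAPLN1 call in that comparison was lost under quantile normalization, at -0.58. The dual knockdown lay between the single ones, 0.37 above siRNF2 and -0.25 from siEED, neither past both thresholds.

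The stretch of 250 bases before the HAPLN1 start (chr5:83720856-83721105, minus strand) is shown beside the others because this gene fell in 4 knockdowns and not in the one that lowered FN1, SPARC and TNC.
HAPLN1: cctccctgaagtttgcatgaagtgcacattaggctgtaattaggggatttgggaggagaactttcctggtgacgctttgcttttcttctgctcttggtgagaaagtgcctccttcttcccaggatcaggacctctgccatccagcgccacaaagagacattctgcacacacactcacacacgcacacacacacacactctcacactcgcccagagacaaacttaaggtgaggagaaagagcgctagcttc
It held none of the 4 motifs, 5 CpG and 50.8% G and C.

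VCAN, encoding versican, the large proteoglycan that HAPLN1 holds on hyaluronan, fell only in the dual knockdown. It was at 10.53 and 10.45 in siEED+RNF2, 11.12 and 11.14 in siEED and 11.11 and 11.04 in siRNF2, against 11.34 and 11.41 in siNTC. The dual arrays lay below all others, and the single knockdowns lay below siNTC by less than the fold threshold. The log2 fold change was -0.88 ± 0.06 in siEED+RNF2 (limma, adjusted p = 5.3e-07), against -0.25 in siEED and -0.30 in siRNF2. In siEED+RNF2 against siEED, VCAN was the 1 matrix gene called, beside 2.91% of all genes, at -0.64 ± 0.06 (adjusted p = 3.1e-05), and against siRNF2 it was at -0.58 ± 0.06 (adjusted p = 5.9e-05), just under the fold threshold. The interaction of the 2 knockdowns was -0.34 ± 0.09 for VCAN (adjusted p = 0.013), also under it.

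Of the laminin alpha chains, LAMA1 rose in all 5 knockdowns and LAMA2 fell in siSETD2. LAMA1 is the alpha chain of the laminin of early embryonic basement membranes. It was at 9.51 and 9.46 in siWDR5, 9.20 and 9.18 in siEED, 9.14 and 9.0 in siRNF2, 9.18 and 9.27 in siEED+RNF2 and 9.05 and 8.95 in siSETD2, against 8.02 and 7.98 in siNTC. The 10 knockdown arrays lay between 8.95 and 9.51, above both siNTC arrays. In limma the log2 fold changes ran from 1.00 ± 0.07 in siSETD2 (adjusted p = 1.4e-06) to 1.49 ± 0.07 in siWDR5 (adjusted p = 1.2e-07). Against the other knockdowns, taken in the same way, the difference was 0.37 in siWDR5 and -0.24 in siSETD2, and none was called.

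LAMA2, the alpha chain of muscle and nerve laminin, was at 7.50 and 7.58 in siSETD2 against 8.97 and 8.85 in siNTC. The 8 other knockdown arrays lay at 8.57 to 9.11, above both siSETD2 arrays. The log2 fold change was -1.37 ± 0.07 against siNTC (limma, adjusted p = 8.8e-08) and -1.06 ± 0.07 against siWDR5 (adjusted p = 6.4e-07). Its 250 bases before the start (chr6:128882888-128883137, plus strand) are printed for comparison with the other genes lower in siSETD2.
LAMA2: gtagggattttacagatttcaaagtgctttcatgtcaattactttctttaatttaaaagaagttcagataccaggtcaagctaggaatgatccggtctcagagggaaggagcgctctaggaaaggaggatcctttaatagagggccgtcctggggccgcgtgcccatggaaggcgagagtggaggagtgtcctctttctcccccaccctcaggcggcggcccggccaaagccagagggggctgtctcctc
They held none of the 4 motifs and 9 CpG. LAMA4 and LAMA5, alpha chains of vessel and epithelial laminins, were called in no knockdown, with log2 fold changes of -0.20 to 0.37.

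Among the beta and gamma chains, LAMB2 alone was called, in siRNF2. LAMB2, a beta chain of mature basement membranes, was at 7.46 and 7.52 in siRNF2 against 6.74 and 6.70 in siNTC, higher by a log2 value of 0.77 ± 0.07 (limma, adjusted p = 3.5e-06). It was at 7.07 and 7.03 in siEED and 7.06 and 7.16 in siEED+RNF2, above siNTC by less than the fold threshold, so both siRNF2 arrays were the highest of the 12. LAMB1 and LAMC3, a beta and a gamma chain, came closest among the others, with LAMC3 at 0.53 in siEED+RNF2 and 0.52 in siRNF2 and LAMB1 at 0.51 in siWDR5. LAMB3, LAMB4 and LAMC1 lay between -0.19 and 0.17 in every knockdown, with LAMB3 and LAMB4 among the dimmest 30% of genes. Over the 10 laminins the median log2 fold change was 0.29 in siEED (all genes -0.03), 0.27 in siEED+RNF2 (all genes -0.02) and 0.22 in siRNF2 (all genes -0.04), and it was 0.05 in siWDR5 and 0.01 in siSETD2. After median centring over genes the laminin median was 0.21 in siEED (all genes -0.11), 0.19 in siEED+RNF2 (all genes -0.10) and 0.09 in siRNF2 (all genes -0.17).

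Of the linkers of the basement membrane, NID1 rose in siWDR5 and siRNF2, NID2 in siRNF2 and HSPG2 in siEED+RNF2. NID1 and NID2 encode nidogens, which bridge laminin and type IV collagen, and HSPG2 encodes perlecan, a heparan sulfate proteoglycan. NID1 was at 8.66 and 8.67 in siWDR5 and 8.78 and 8.67 in siRNF2, against 7.96 and 8.04 in siNTC, with siEED at 7.77 and 7.70 and siEED+RNF2 at 8.07 and 8.16. The siWDR5 and siRNF2 arrays lay above all others, and the siEED arrays below all others. The log2 fold changes were 0.66 ± 0.07 in siWDR5 (limma, adjusted p = 2.6e-05), 0.72 ± 0.07 in siRNF2 (adjusted p = 7.2e-06) and -0.27 ± 0.07 in siEED (adjusted p = 0.01, under the fold threshold).

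NID1 also differed between knockdowns that share no arrays. It was higher in siRNF2 than in siEED by 0.99 ± 0.07 (limma, adjusted p = 9e-06) and higher in siWDR5 than in siEED by 0.93 ± 0.07 (adjusted p = 5.6e-06). In siEED+RNF2 against siRNF2, NID1 was the 1 matrix gene called, beside 3.27% of all genes, at -0.60 ± 0.07 (adjusted p = 8.8e-05). That call was lost at -0.55 without siRNF2 replicate 1 and at -0.56 without siEED+RNF2 replicate 1. It was also lost under quantile normalization and after median centring over genes, and kept after centring over all transcript clusters.

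NID2 was at 6.32 and 6.17 in siRNF2 against 5.69 and 5.34 in siNTC, and its 2 siRNF2 arrays were the highest of the 12. Its log2 fold change of 0.73 ± 0.10 (limma, adjusted p = 0.00015) was 0.56 without siNTC replicate 2, under the fold threshold. HSPG2 had values of 7.19 and 7.21 with both siRNAs against 6.66 and 6.57 in siNTC. Its change of 0.59 ± 0.07 (adjusted p = 5.3e-05) lay at the fold threshold and was lost at 0.55 without siNTC replicate 2, at 0.58 without siEED+RNF2 replicate 2 and at 0.51 after median centring over genes. HSPG2 lay at 0.47 in siEED and 0.48 in siRNF2, not called, and its difference between siEED+RNF2 and siRNF2 was 0.11 ± 0.07 (adjusted p = 0.37 in limma).

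**Figure D4:**
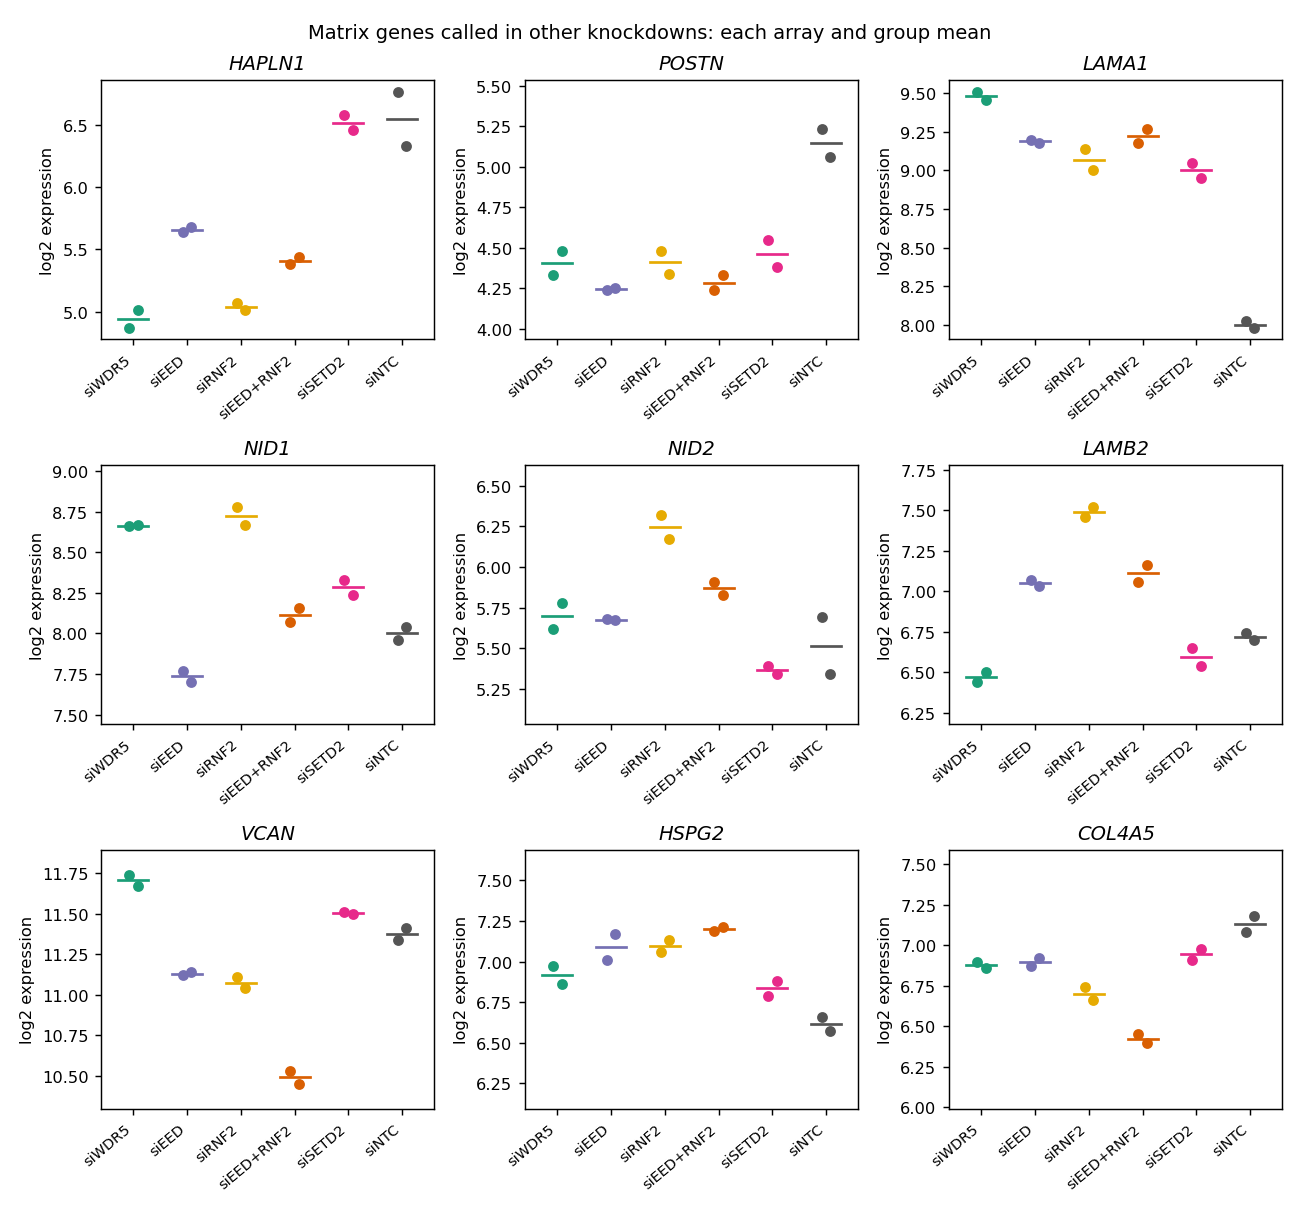
Log2 expression (vertical axis) on each array (points) with the mean of 2 arrays (bars) for 9 matrix genes called in at least 1 knockdown other than siSETD2, with conditions on the horizontal axis. POSTN and LAMA1 were called in siSETD2 as well. POSTN, LAMA1, HSPG2 and COL4A5 split all 10 knockdown arrays from siNTC, and VCAN (10.53 and 10.45) and COL4A5 (6.45 and 6.40) are lowest in siEED+RNF2.

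The 6 type IV collagen genes lie in the genome as 3 head-to-head pairs, each pair transcribed outward from a shared interval. COL4A1 and COL4A2 encode the chains found in nearly all basement membranes, and the other chains form the networks of kidney, lung, eye and other selected tissues. COL4A1 was at 6.55 and 6.64 in siEED+RNF2, 6.49 and 6.45 in siWDR5, 6.44 and 6.59 in siEED and 6.31 and 6.30 in siRNF2, against 5.98 and 6.04 in siNTC. COL4A2 was at 7.46 and 7.30 in siWDR5, 7.21 and 7.21 in siEED+RNF2, 7.09 and 7.21 in siEED and 7.05 and 7.11 in siRNF2, against 6.66 and 6.90 in siNTC. For both genes all 8 of these arrays lay above both siNTC arrays. COL4A1 was called in siEED+RNF2 (0.59 ± 0.07, limma adjusted p = 3.7e-05) and COL4A2 in siWDR5 (0.60 ± 0.09, adjusted p = 0.00029), both at the fold threshold. In siSETD2 both had a log2 fold change of -0.01.

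These 2 calls were among the least stable. COL4A1 was lost in siEED+RNF2 at 0.56 without siNTC replicate 1, 0.54 without siEED+RNF2 replicate 2 and 0.51 after median centring over genes, and COL4A2 in siWDR5 at 0.47 without siNTC replicate 1 and 0.51 without siWDR5 replicate 1. COL4A2 was also lower in siSETD2 than in siWDR5, by -0.60 ± 0.09 (limma, adjusted p = 0.00027), which was lost at -0.52 without siWDR5 replicate 1. The interval of 126 bases between the RefSeq starts of COL4A1 and COL4A2 (GRCh38.p14, chr13:110307158-110307283) is shown on the plus strand, the strand of COL4A2, since both genes are read from it.
COL4A1/COL4A2: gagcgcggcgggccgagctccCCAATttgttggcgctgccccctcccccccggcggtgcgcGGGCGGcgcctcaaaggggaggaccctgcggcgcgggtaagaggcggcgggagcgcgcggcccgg
It held 20 CpG and 80.2% G and C, with CCAAT from 105 to 101 and GGGCGG from 65 to 60 bases before the COL4A2 start.

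COL4A5 moved without its partner. It was at 6.45 and 6.40 in siEED+RNF2, 6.87 and 6.92 in siEED and 6.74 and 6.66 in siRNF2, against 7.08 and 7.18 in siNTC, so the dual arrays were lowest. Its log2 fold change was -0.71 ± 0.06 in siEED+RNF2 (limma, adjusted p = 3.8e-06). It lay at -0.43 in siRNF2, -0.25 in siWDR5, -0.24 in siEED and -0.19 in siSETD2, under the fold threshold. Every knockdown array was below both siNTC arrays. COL4A6, whose nearest RefSeq start lies 379 bases from that of COL4A5, had log2 fold changes of -0.04 to 0.09 in the 5 knockdowns. COL4A3 and COL4A4, with 135 bases between the RefSeq bounds of the genes, lay at -0.05 to 0.13. Both were among the dimmest 30% of genes.

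**Figure D5:**
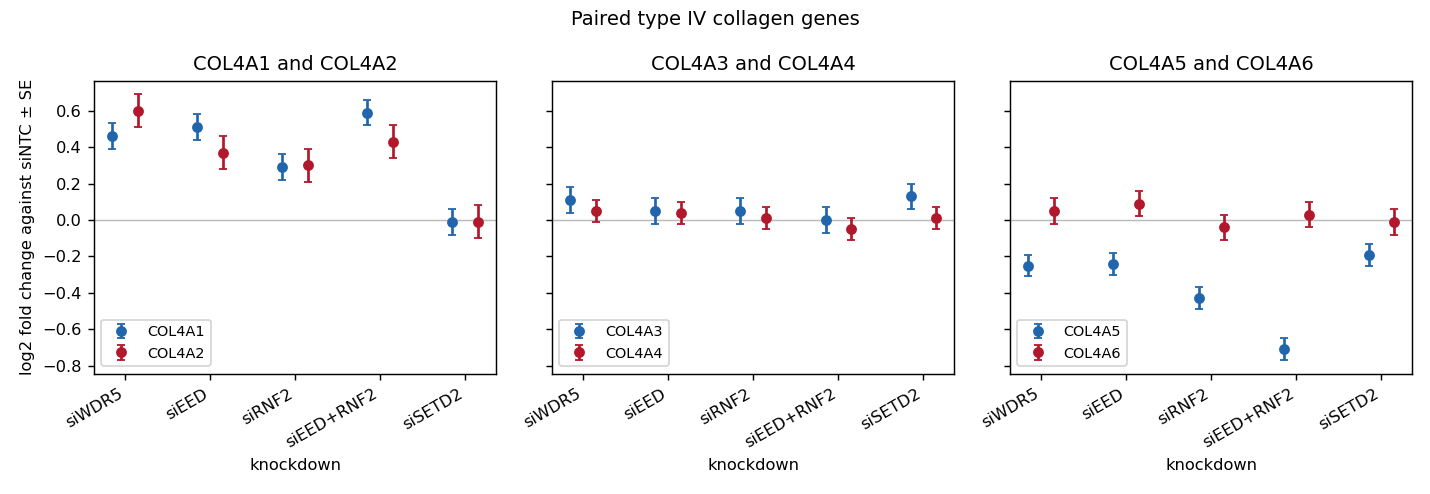
Log2 fold change against siNTC with its SE (vertical axis) of the 3 head-to-head pairs of type IV collagen genes in the 5 knockdowns (horizontal axis). COL4A1 and COL4A2 lie at 0.29 to 0.60 in 4 knockdowns and at -0.01 in siSETD2, whereas COL4A5 (down to -0.71) parts from COL4A6 (-0.04 to 0.09).

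COL18A1, the multiplexin of basement membranes from which endostatin is released, was at 6.67 and 6.91 in siSETD2 against 7.79 and 7.80 in siNTC. Both arrays lay below the 7.43 to 7.89 of the other knockdowns. The log2 fold change was -1.0 ± 0.10 (limma, adjusted p = 2.7e-05) against siNTC and -0.75 ± 0.10 against siWDR5 (adjusted p = 0.00021). COL15A1, the other multiplexin, lay at -0.04 to 0.17 and was among the dimmest 30% of genes.

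No fibrillar collagen, fibril-associated collagen or type VI collagen was called in any knockdown. Many of them were among the dimmest 30% of genes, where a fall could hardly show. These include COL1A2, COL3A1, COL5A2, COL5A3, COL11A1, COL11A2, COL24A1, COL6A3, COL6A5 and COL6A6. The 11 fibrillar collagens, which include the chains of types I, II, III and V, had log2 fold changes of -0.34 to 0.27. The 10 fibril-associated collagens lay at -0.43 (COL9A2 in siWDR5) to 0.26, the 5 type VI collagens at -0.21 to 0.39 and the 9 network-forming, anchoring, transmembrane and other collagens at -0.28 to 0.10. FBN1 and FBN2, the fibrillins of microfibrils, lay at -0.39 to 0.20. The median over 43 collagens was between -0.08 and -0.01 in the 5 knockdowns, beside medians of -0.04 to -0.01 over all genes.

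The dual knockdown was also set against the sum of its single knockdowns. This interaction, the siEED+RNF2 mean minus siEED minus siRNF2 plus siNTC, was called for 4 matrix genes, beside 11.3% of all genes. HAPLN1 was at 1.26 ± 0.16 (limma, adjusted p = 0.00015), POSTN at 0.78 ± 0.12 (adjusted p = 0.00063), LAMA1 at -1.04 ± 0.10 (adjusted p = 2.2e-05) and LAMB2 at -0.71 ± 0.09 (adjusted p = 0.00019). For LAMA1 and LAMB2 the change in the dual knockdown was smaller than the sum of the changes in the single ones. For POSTN that sum would be a log2 level of 3.51, below the siEED+RNF2 mean of every gene tested (0% lay lower), so nothing is read from the POSTN value. The same level for HAPLN1 was 4.15, near the low end of the scale, with 3.55% of genes below it. Nothing is therefore read from the HAPLN1 value either. The LAMB2 value was -0.58, just under the fold threshold, after median centring over genes. The interaction contains the siNTC arrays, and POSTN and LAMA1 were the members called against siNTC in all 5 knockdowns. The LAMA1 value therefore cannot be told apart from a shift of the shared siNTC arrays. Other members, among them HSPG2, LAMB1, LAMC3 and COL4A5, also had every knockdown array on the same side of both siNTC arrays.

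Genes that process, bind or cut matrix were counted from 4 further lists, to be read beside 2.64% to 6.37% of all genes higher and 2.63% to 6.02% lower in the 5 knockdowns. These lists were chosen with earlier results of these data known, so no excess is read from their shares. Of 33 collagen synthesis and crosslinking genes measured, 2 rose in both siEED and siRNF2 and 1 in each other knockdown, and 1 fell, in siRNF2. The shares higher, 3.03% to 6.06%, lay within that range. P4HA2, a prolyl 4-hydroxylase subunit that stabilises the collagen helix, rose in all 5. It was at 9.56 and 9.43 in siRNF2, 8.60 and 8.63 in siEED+RNF2, 8.20 and 8.20 in siEED, 7.79 and 7.89 in siWDR5 and 7.74 and 7.72 in siSETD2, against 7.07 and 7.02 in siNTC. Its log2 fold change reached 2.45 in siRNF2, and no array overlapped siNTC. MIA2, which helps load collagen for export, rose by 1.04 in siEED and 1.22 in siRNF2, and SERPINH1, the collagen chaperone, fell by 0.60 in siRNF2.

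Of 27 matrix receptors measured, 4 rose in siEED, 3 each in siWDR5 and siEED+RNF2 and 2 each in siRNF2 and siSETD2, and 2 fell, both in siSETD2. The shares higher were 7.41% to 14.8%. ITGA5, the alpha chain of the main fibronectin receptor, was at 7.49 and 7.46 in siEED, 8.07 and 8.06 in siRNF2, 8.17 and 8.13 in siEED+RNF2 and 7.55 and 7.36 in siSETD2, against 6.17 and 6.29 in siNTC. It was called in these 4 knockdowns, at 1.24, 1.83, 1.92 and 1.23. In siSETD2, where FN1 fell, ITGA5 was higher. SDC2, a heparan sulfate receptor, was at 8.06 and 7.89 in siSETD2 against 9.14 and 9.14 in siNTC, a difference of -1.16. SDC3, another syndecan, rose by 0.94 in siEED+RNF2 and 0.83 in siRNF2, and ITGB8, an integrin beta chain, by 1.23 in siWDR5 and 0.63 in siEED.

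Of 27 matrix proteases and inhibitors measured, 3 rose in both siWDR5 and siEED and 2 in each other knockdown, while 2 fell in siRNF2 and 1 each in siEED and siEED+RNF2. The shares higher were 7.41% to 11.1%. PLAU, the urokinase that activates plasmin, was at 8.57 and 8.72 in siEED, at 8.52 and 8.56 in siEED+RNF2 and at 8.50 and 8.45 in siRNF2, against 6.31 and 6.34 in siNTC. Its log2 fold changes were 2.32, 2.21 and 2.15. MMP16, a membrane-bound metalloproteinase, was at 7.52 and 7.54 in siSETD2 against 6.08 and 6.19 in siNTC, a change of 1.39, and at 0.93 in siWDR5. TIMP3, a metalloproteinase inhibitor held in matrix, rose by 1.04 in siEED, 0.71 in siEED+RNF2 and 0.59 in siRNF2, and ADAMTS20, a secreted metalloproteinase, rose by 1.01 in siSETD2 and 0.68 in siWDR5.

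Of 62 other proteoglycans and glycoproteins measured, 4 rose and 4 fell in siRNF2, 3 rose and 4 fell in siSETD2, 3 rose and 3 fell in both siEED and siEED+RNF2, and 1 rose and 2 fell in siWDR5. The shares higher were 1.61% to 6.45%. THBS1, a thrombospondin, was at 7.01 and 7.00 in siSETD2 and 7.06 and 7.25 in siRNF2, against 8.40 and 8.39 in siNTC, and was called lower in all 5. THBS2 was at 7.38 and 7.55 in siEED, at 7.62 and 7.53 in siEED+RNF2 and at 7.44 and 7.52 in siRNF2, against 9.14 and 9.13 in siNTC. Its log2 fold changes of -1.67, -1.56 and -1.65 were called, and those in siWDR5 and siSETD2 were not. THBS4 went the other way in 4 knockdowns, at 7.18 and 7.13 in siRNF2, 6.82 and 6.72 in siEED+RNF2, 6.39 and 6.59 in siEED and 6.49 and 6.53 in siSETD2, against 5.84 and 5.90 in siNTC. Its log2 fold changes of 1.28, 0.90, 0.62 and 0.64 were called, and that of -0.19 in siWDR5 was not. BGN, the small proteoglycan biglycan, rose by 1.21 in siRNF2 and 1.04 in siEED+RNF2.

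Markers of other matrix-making cells were read beside these values. Of 12 mesenchyme and fibroblast markers, none was higher in any knockdown, THY1 was lower in siEED, siRNF2 and siEED+RNF2 (-1.56, -1.67 and -1.50) and SNAI2 in siRNF2 and siSETD2 (-0.87 and -0.91). Their summed linear signal was 2053 to 2062 in siSETD2, 1713 to 1755 in siWDR5, 1115 to 1126 in siEED, 987 to 993 in siRNF2 and 1122 to 1144 in siEED+RNF2, against 2164 to 2201 in siNTC. THY1 alone made up 44% to 74.5% of the sum on the 12 arrays, and the median log2 fold change over the 12 markers was -0.08 to -0.01 in the 5 knockdowns. Of 10 primitive and parietal endoderm markers measured, DAB2 was lower in siEED, siRNF2 and siEED+RNF2 (-0.80, -0.79 and -0.59) and none was higher, and the sum was 539 to 705 over the knockdown arrays against 709 to 758 in siNTC. Of 7 endothelial markers KDR was lower in siEED, siRNF2, siEED+RNF2 and siSETD2, at -0.97 to -1.05, and the sum was 202 to 267 in the knockdowns against 254 to 272 in siNTC. The part of these markers in the matrix genes' values was not tested.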

How the data were processed

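Expression was measured on 12 Affymetrix Human Gene ST arrays of NCCIT cells, 2 per condition, with conditions taken from the submitters' labels. The authors deposited log2 values for 33297 transcript clusters. GCRMA and Partek appear in the submitters' processing notes, with versions not given in the sources used here. Background correction and normalization between arrays therefore preceded deposit, and no further normalization was applied to the reported values. The number of arrays limits the precision.

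Gene names came from the platform annotation and were brought up to date through RefSeq gene numbers (19429 of 19460 clusters with 1 gene matched). The 1754 clusters with several genes were not used, and the brightest of several clusters stood for a gene, which left 18417 genes. Value columns not used numbered 0.

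With limma 3.58.1 (R 4.3.3), 1 linear model with a mean for each condition took in the 12 arrays (6 residual degrees of freedom, empirical Bayes moderation), and p-values were adjusted over all genes by the Benjamini-Hochberg method. The fit was tested on simulated data with known changes. The members, the further gene lists and the thresholds were chosen with earlier results of these data known. Named genes were the called members, the type IV collagen pairs, the uncalled members nearest the thresholds and up to 4 called genes per further list with the largest change. Alternatives were other scalings, filters, thresholds, references and moderation, a replicate block, a fit of the compared groups alone, and leaving out each array. Promoter sequences are from RefSeq on GRCh38.p14, and 51 of 65 members matched that table. Plots were made in Python 3.11.15 with matplotlib 3.10.9. A 5mC-seq dataset of the same study was not analysed here.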

Additional observations from a re-analysis of the deposited data

Results flagged for a closer look

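Some matrix genes differed between knockdowns, or departed from the sum of the single knockdowns, by the test of that difference itself in limma. Between siRNF2 and siEED these were HAPLN1 (log2 difference of -0.62) and NID1 (0.99). Between siEED+RNF2 and siEED it was VCAN (-0.64), and between siEED+RNF2 and siRNF2 it was NID1 (-0.60). Between siWDR5 and siEED they were HAPLN1 (-0.72), NID1 (0.93) and TNC (0.62).

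Between siSETD2 and siWDR5 8 genes differed, beside 5.84% of all genes. TNC (-1.71), FN1 (-1.16), LAMA2 (-1.06), SPARC (-1.05), COL18A1 (-0.75) and COL4A2 (-0.60) were lower in siSETD2, and HAPLN1 (1.58) and P3H2 (1.54) were higher. TNC, FN1, SPARC, HAPLN1 and P3H2 are from the list made with results known, so nothing is read from the count.

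The interaction of the EED and RNF2 knockdowns, which includes the siNTC arrays, was called for HAPLN1 (1.26), POSTN (0.78), LAMB2 (-0.71) and LAMA1 (-1.04). The sum for POSTN lies below the siEED+RNF2 mean of every gene tested, so nothing is read from its value. The sum for HAPLN1 lies near the low end of the scale, with 3.55% of genes below it, and its value is not read either. The LAMA1 value cannot be told apart from a shift of the shared siNTC arrays. With 2 arrays per condition, no array could be tested as standing apart from its group.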

How the results depend on the processing

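The limits are 2 arrays per condition, 1 control shared by 5 comparisons and a scale set before deposit. Of 48 called gene values, all kept direction and call under the replicate block, the compared groups alone, a variance trend with robust moderation, an adjusted p under 0.01, the mean of a gene's clusters and centring over all transcript clusters, the last chosen after seeing the data. Centring over genes, which shifts siEED by 0.08, siRNF2 by 0.13 and siEED+RNF2 by 0.08 against siNTC, lost 4, and quantile normalization lost 2. Leaving out an array kept 564 such values and lost 12.

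Counts moved with the fold threshold. The counts here and in the next paragraph are given without the share of all genes, so nothing about matrix genes is read from them. In siEED+RNF2, 4380 of 18417 genes were higher and 4669 lower at an unadjusted limma p under 0.05 with no fold threshold. Of the 65 members, 16 were higher and 12 lower at that cut. Without one, 24 matrix genes passed in siEED+RNF2, 22 in siRNF2, 20 in siEED and 19 each in siWDR5 and siSETD2, 6 in siRNF2 against siEED, 6 and 8 in siEED+RNF2 against siEED and siRNF2, 12 in siWDR5 against siEED, 18 in siSETD2 against siWDR5 and 12 in the interaction. At a fold of at least 2 the counts were 2, 1, 2, 2 and 5 in the 5 knockdowns, 0 in siRNF2 against siEED, 0 and 0 in siEED+RNF2 against siEED and siRNF2, 0 in siWDR5 against siEED, 6 in siSETD2 against siWDR5 and 2 in the interaction, all by limma. Quantile normalization gave 1 in siRNF2 against siEED and 0 in siEED+RNF2 against siRNF2, where centring over genes gave 0 and centring over all transcript clusters 2.

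Leaving out each array in turn gave 4 to 5 called in siWDR5, 3 to 4 in siEED, 6 in siRNF2, 5 to 7 in siEED+RNF2 and 8 in siSETD2. It gave 2 to 4 in siRNF2 against siEED (4 without siRNF2 replicate 2), 0 to 2 in siEED+RNF2 against siRNF2 (0 without siRNF2 replicate 1), 2 to 5 in siWDR5 against siEED (5 without siWDR5 replicate 2), 1 in siEED+RNF2 against siEED, 8 in siSETD2 against siWDR5 and 4 to 5 in the interaction.

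With the other knockdowns as the reference, 11 of the values called against siNTC stayed called, 11 were no longer called and 7 turned sign. Those that turned sign were LAMA1 in siRNF2 (-0.15), siEED+RNF2 (-0.02) and siSETD2 (-0.24), POSTN in siWDR5 (0.06), siRNF2 (0.04) and siSETD2 (0.13) and HAPLN1 in siEED (0.16). Among values not called against siNTC, HAPLN1 in siSETD2 (1.26), P3H2 in siRNF2 (-0.71) and siEED+RNF2 (-0.73) and LAMA2 in siEED+RNF2 (0.77) turned sign and became calls. A further 9 such values became calls without turning sign. That reference contains siSETD2 or siWDR5, in which some of these genes changed.

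Deviations of same-numbered arrays correlated weakly (r of -0.107 to 0.161 over pairs of conditions), which cannot tell whether these arrays were grown or run together. The replicate block gave the same counts, 5, 3, 6, 7 and 8 in the 5 knockdowns and 4 in the interaction. Leaving out the 30% dimmest genes left POSTN untested.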
